A study of Homo sapiens with 6 samples.

Results

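The genes described here are 52 interferon-stimulated genes (ISGs) outside the IFIT, OAS and MX families, the nucleic acid sensors, the JAK-STAT pathway and class I antigen presentation. They were taken by exact gene name from the deposited expression tables, and all 52 were found among the 62754 gene identifiers. The tables cover HFF-2 human dermal fibroblasts (HDFs), a commercially available fibroblast line, that carried a lentiviral short hairpin RNA against TFEB (TFEB-KD, 3 libraries) or a scramble hairpin (SCR, 3 libraries, labelled wild type). All 6 libraries came from puromycin-selected cells on day 4 of oxidative stress, in which tert-butyl hydroperoxide (tBHP) was given at 40 μM for 1 h, 2 times per day. TFEB is a transcription factor that drives genes of lysosomes and autophagy, and the comparison asks which transcripts differ in stressed HDFs when its expression is lowered. The controls therefore share the virus, the drug selection and the oxidant with the knockdown cells, a single hairpin was used per group, and no untreated library was analysed here. Total counts were 55135426, 38769620 and 49992885 in SCR replicates 1 to 3 and 42433767, 43002866 and 51499335 in TFEB-KD replicates 1 to 3. Fold changes compare TFEB-KD with SCR, adjusted p values are those of edgeR's quasi-likelihood test over all 16931 genes tested, and a gene was called lower or higher when its adjusted p was under 0.05 and its log2 fold change was over 0.36 or under -0.36.

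Interferons are secreted cytokines that warn cells of infection. Type I interferons bind the IFNAR1 and IFNAR2 receptor, the kinases JAK1 and TYK2 phosphorylate transcription factors that include STAT2, and a complex holding STAT2 and IRF9 binds a DNA element called the interferon-stimulated response element (ISRE) in front of ISGs. Genes that answer to interferon gamma often carry another element, the gamma-activated site (GAS). Fibroblasts carry these receptors and keep a low, constant expression of many ISGs without infection. ISG products block virus entry, assembly and translation, modify proteins with the ubiquitin-like ISG15, and feed back on the receptor.

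The ISRE letters in front of 9 of these genes are shown because they are the element by which ISGs are known, and because the same letters stood before genes that were lower, higher or not called in TFEB-KD cells. Not every ISG here held them, with matches near the start of 30 of the 43 for which RefSeq sequence was at hand. Sequences are RefSeq's, read 5′ to 3′ in the direction of the gene, and capitals mark each match to GAAANNGAAA or to its reverse complement. The 9 were picked after their values were known.
IFI6: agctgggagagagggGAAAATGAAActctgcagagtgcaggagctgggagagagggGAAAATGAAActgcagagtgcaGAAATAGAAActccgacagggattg
IFI44L: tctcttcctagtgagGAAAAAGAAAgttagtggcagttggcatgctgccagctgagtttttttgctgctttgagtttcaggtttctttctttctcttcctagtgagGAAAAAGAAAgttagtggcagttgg
BST2: tttctggGAAACTGAAACTGAAAacctaat
ISG15: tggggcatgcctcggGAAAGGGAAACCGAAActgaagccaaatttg
GBP1: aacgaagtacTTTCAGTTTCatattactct
IFITM3: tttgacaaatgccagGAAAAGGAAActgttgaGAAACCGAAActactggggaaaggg
ISG20: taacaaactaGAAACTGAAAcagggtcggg
HERC5: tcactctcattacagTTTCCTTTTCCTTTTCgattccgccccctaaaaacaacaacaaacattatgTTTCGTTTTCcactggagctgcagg
SAMD9: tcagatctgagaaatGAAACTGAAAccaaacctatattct
In GRCh38.p14 the stretch of IFI6 is at chr1:27672261-27672363 on the minus strand, that of IFI44L at chr1:78620269-78620399 on the plus strand and that of BST2 at chr19:17405738-17405767 on the minus strand. The ISG15 stretch is at chr1:1013369-1013414 on the plus strand, GBP1 at chr1:89065316-89065345 on the minus strand and IFITM3 at chr11:320871-320927 on the minus strand. For ISG20 it is chr15:88638937-88638966 on the plus strand, for HERC5 chr4:88456979-88457069 on the plus strand and for SAMD9 chr7:93118091-93118130 on the minus strand. Each lies within 250 bases before a RefSeq start site, and the stretches of IFI6, ISG15, IFITM3, HERC5 and SAMD9 overlap no exon of GENCODE 44. Untranslated exon parts of other transcripts of the same gene cover the GBP1 stretch, 14 bases of that of ISG20 and 18 bases of that of IFI44L, and the BST2 stretch lies in exons of BISPR and MVB12A, which run the other way. The 2 IFI44L matches sit in a repeated stretch of letters, those of BST2 and ISG15 overlap each other, and so do the first 2 matches of HERC5, whose last match is set apart. IFI6, IFI44L, BST2, ISG15, GBP1 and IFITM3 were lower in TFEB-KD cells, ISG20 was higher, and HERC5 and SAMD9 were not called.

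TFEB itself was measured at 15, 14.9 and 16.4 CPM in SCR and 9.62, 8.20 and 8.87 CPM in TFEB-KD (CPM, counts scaled to library size and TMM factor). Its log2 fold change was -0.80 (SE 0.077, adjusted p = 1.37e-05), and no TFEB-KD library reached an SCR library. Of the related factors, TFE3 had a log2 fold change of -0.26 (adjusted p = 2.43e-04) and MITF of 0.058 (adjusted p = 0.474), neither past the fold threshold.

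Markers of fibroblasts were abundant in every library. Their summed level over 10 genes was 9893 to 10350 TPM in SCR and 7125 to 7283 TPM in TFEB-KD (TPM, a level per transcript length), with the filament protein VIM the most abundant. Of these 10 genes, 7 were lower, among them COL3A1 at -3.12 on the log2 scale and COL1A1 at -1.52, and PDGFRA (1.51) and DCN (1.12) were higher. Over all genes tested, 15.0% were lower and 9.99% higher. The 8 leukocyte markers summed to 1.12 to 1.27 TPM in SCR and 1.40 to 1.73 TPM in TFEB-KD with CD14 the most abundant, and 1 to 4 of the 8 were at 0 in each library. PTPRC, carried by every leukocyte, had 12, 8 and 6 counts in SCR and 6, 3 and 6 counts in TFEB-KD. Neither of the 2 leukocyte markers that were tested was called. The 6 keratinocyte markers summed to 90.8 to 94.2 TPM in SCR and 82.0 to 84.4 TPM in TFEB-KD, nearly all from KRT10 and DSP, while KRT5 and KRT14 had at most 16 counts in any library and were not tested. KRT10 and DSP had adjusted p under 0.05 with log2 fold changes of -0.16 and -0.24, within the fold threshold. The 5 endothelial markers summed to 0.363 to 0.442 TPM in SCR and 0.252 to 0.312 TPM in TFEB-KD, led by TEK in all but TFEB-KD replicate 3, where CDH5 led. The 4 melanocyte markers summed to 0.654 to 0.922 TPM in SCR and 0.233 to 0.652 TPM in TFEB-KD, led by PMEL. TEK (-1.36) and PMEL (-1.07), named after their values were seen, were called lower at no more than 66 counts in any library, and PECAM1 and MLANA had at most 7. Other markers of the same lists did not follow them, with VWF at 0.16 and not called, and MLANA at 1, 2 and 0 counts in SCR and 3, 4 and 6 counts in TFEB-KD. The summed level separated SCR from TFEB-KD for all 5 lists, lower in TFEB-KD for fibroblasts, keratinocytes, endothelium and, narrowly, melanocytes and higher for leukocytes, and the part of these differences in the ISG results was not tested. In bulk RNA, fewer cells that express a gene and less of its RNA per cell cannot be told apart.

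The ISGs were mostly lower in TFEB-KD cells. Of the 52, 51 passed the filter on low counts, and 32 of these (62.7%) were called lower, against 15.0% of all genes tested. IFI6, BST2, IFI27 and IFI44L fell furthest, to between 17.8% and 23.0% of their SCR means in CPM. GBP2, ISG20 and CMPK2 (5.88% of the 51) were called higher, against 9.99% of all genes. When libraries were scaled by their size without TMM factors, all genes split into 2497 higher and 2047 lower in place of 1691 and 2532, the median over all genes moved by 0.090, and 26 of the ISGs were lower and 3 higher.

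The median log2 fold change over the 51 genes was -0.50, with quartiles of -0.81 and -0.25, beside 0.0033 over all genes tested. It lay below 0 for 44 of the 51 and for 49.6% of all genes. A fall of over 1 on the log2 scale was seen in 9 of the ISGs (17.6%, against 5.10% of all genes tested), namely IFI6, BST2, IFI27, IFI44L, GBP1, HERC6, GBP3, EPSTI1 and PARP9. For GBP3 and EPSTI1 the log2 ratio of mean TPM was smaller, at -0.84 and -0.63. In 39 of the 51 every TFEB-KD library had a lower CPM than every SCR library, against 28.4% of all genes, and in 4 (GBP2, ISG20, CMPK2 and SAMD9) every TFEB-KD library had a higher one, against 27.0% of all genes. All 35 ISGs called were among these 43.

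**Figure D1:**
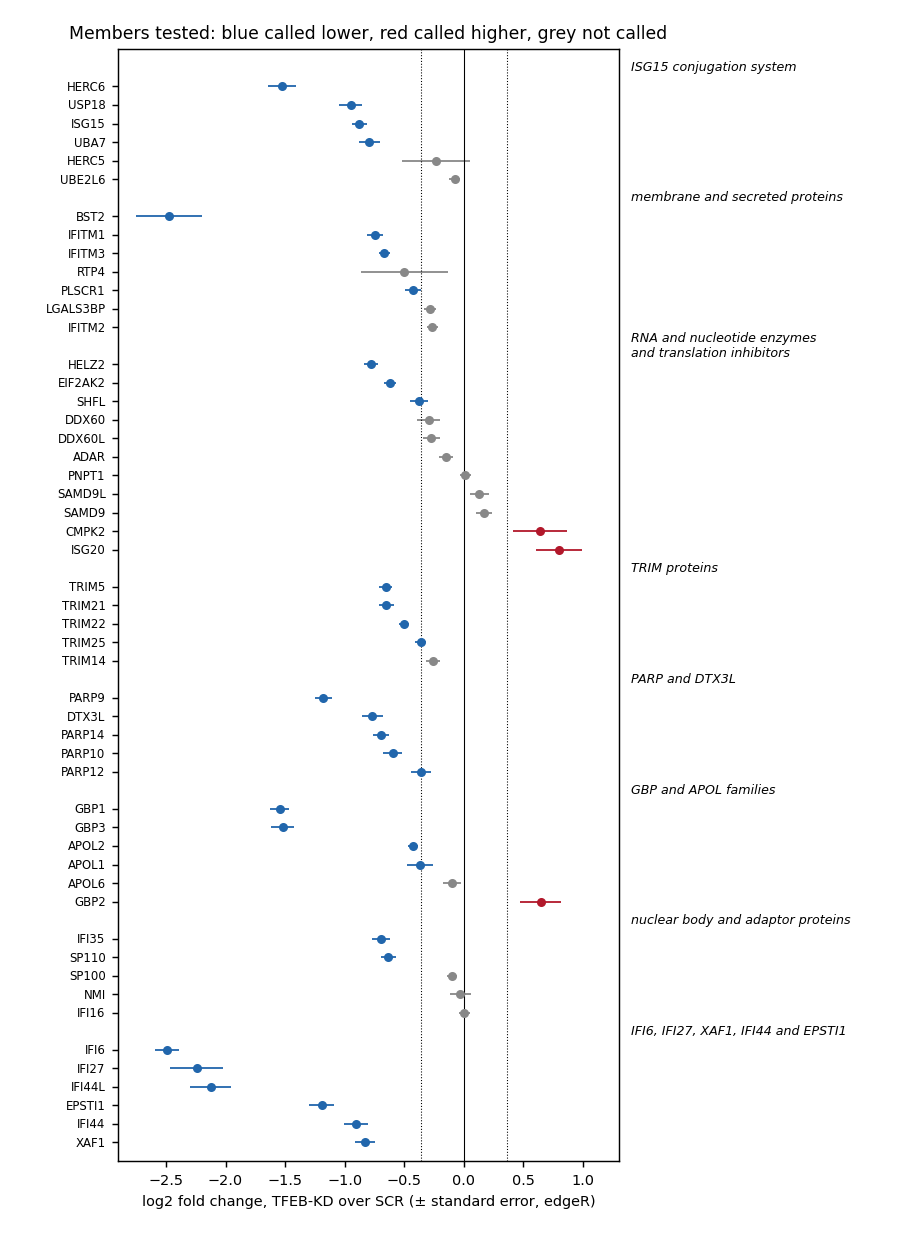
The log2 fold change of each of the 51 ISGs tested, TFEB-KD over SCR, is plotted by functional group, with points for edgeR's estimate from 3 libraries per group and bars for ± 1 standard error. Dotted lines mark -0.36 and 0.36. The group of IFI6, IFI27, XAF1, IFI44, IFI44L and EPSTI1 lies wholly to the left of -0.83, while ISG20, GBP2 and CMPK2 are the points called to the right of 0.

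Summed over the 52 genes, ISG transcripts took 0.298%, 0.295% and 0.311% of all TPM in SCR and 0.204%, 0.204% and 0.205% in TFEB-KD. The TFEB-KD mean of 0.204% ± 0.000838 (SD, n = 3) was 67.8% of the SCR mean of 0.301% ± 0.00871 (SD, n = 3). Between 62.8% and 67.2% of this sum came from IFITM3, IFITM2 and ISG15, depending on the library. Without these 3 genes the share was 0.110% ± 0.00608 in SCR and 0.0693% ± 0.00262 in TFEB-KD (63.2% of SCR), so the lower sum did not rest on them. Mean levels in SCR ran from 0.0581 TPM for RSAD2 to 1138 TPM for IFITM3, with a median of 8.0 TPM. Of the 26 genes at or above 8.26 TPM in SCR, 17 were called lower (median log2 fold change -0.47), and of the 25 tested below it, 15 were (median -0.60).

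**Figure D2:**
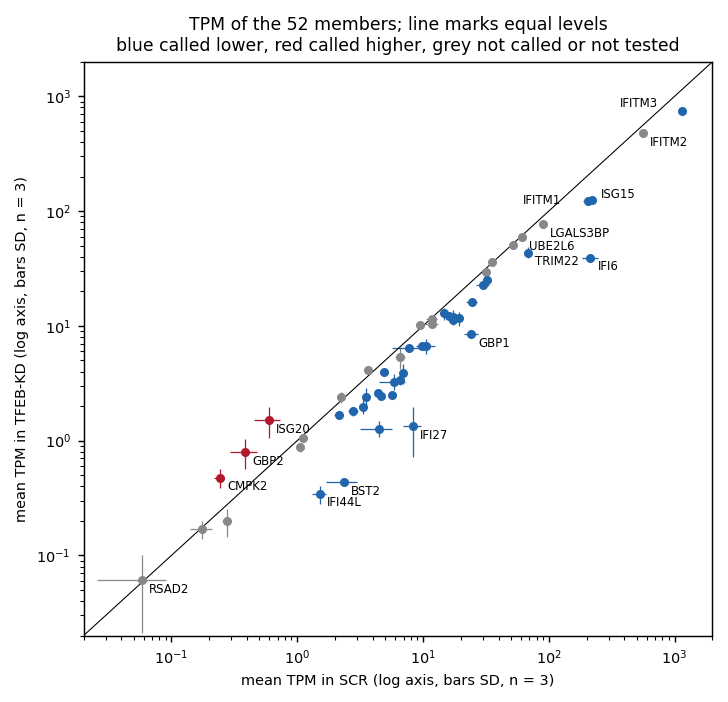
Mean TPM of each of the 52 ISGs in SCR (horizontal, log axis) is plotted against TFEB-KD (vertical, log axis), with bars for 1 SD over 3 libraries. Most points lie below the line of equal levels, IFI6, IFI27, BST2 and IFI44L farthest, whereas the 3 genes called higher lie at the low end, ISG20 highest among them at 0.592 TPM in SCR.

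The ISG15 conjugation system attaches the ubiquitin-like protein ISG15 to other proteins. Of its 6 genes, 4 were lower, none was higher, and the median log2 fold change was -0.84. For this and each later group, the share over all genes tested was 15.0% lower and 9.99% higher. Full separation of the libraries was seen in 28.4% of all genes tested with TFEB-KD lower and in 27.0% with TFEB-KD higher. ISG15, the modifier itself, measured 79.7, 68.9 and 77.2 CPM in SCR and 38.4, 41.6 and 42.9 CPM in TFEB-KD, with a log2 fold change of -0.88 (SE 0.063, adjusted p = 1.48e-06). HERC6, a HERC-family ligase whose mouse counterpart is the main ISG15 ligase, measured 8.34, 8.21 and 10.4 CPM in SCR and 3.11, 3.36 and 2.90 CPM in TFEB-KD, a change of -1.53 (SE 0.12, adjusted p = 2.38e-06). USP18, which removes ISG15 and also restrains the type I interferon receptor, measured 5.99, 6.45 and 6.56 CPM in SCR and 3.43, 3.20 and 3.20 CPM in TFEB-KD, a change of -0.95 (SE 0.095, adjusted p = 1.70e-05). For these 3 genes the highest TFEB-KD library stayed below the lowest SCR library, at 34.7% to 54.4% of the SCR mean. UBA7, the activating enzyme, was lower as well, at -0.79 (adjusted p = 3.56e-05). The enzymes of the next steps were not called. UBE2L6, the conjugating enzyme, had a log2 fold change of -0.075 (adjusted p = 0.217), and HERC5, the human ligase, had -0.23 (adjusted p = 0.536) with 28, 21 and 18 counts in SCR and 17, 18 and 23 counts in TFEB-KD. The groups overlapped for both, and HERC5, at 17 to 28 counts in a library, had a standard error of 0.28. Thus, the modifier, its activating enzyme and its protease were lower while the conjugating enzyme, at 61.2 TPM in SCR and 59.6 TPM in TFEB-KD, was not called. USP18 shared 28.7% of its 31-base words with other genes, chiefly USP41, so its counts are uncertain to that extent.

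Among membrane and secreted proteins, 4 of 7 genes were lower, none was higher, and the median log2 fold change was -0.50. BST2 (tetherin) holds newly formed enveloped viruses at the cell surface, and measured 1.44, 1.12 and 1.95 CPM in SCR and 0.275, 0.270 and 0.264 CPM in TFEB-KD, from 78, 42 and 93 counts in SCR and 12, 12 and 14 counts in TFEB-KD. Its log2 fold change of -2.47 (SE 0.27, adjusted p = 3.67e-05) was larger in size than that of any other gene of the group. At 12 to 14 counts, the closeness of the TFEB-KD values to each other is not read as a result. The IFITM proteins block the fusion of viruses with cell membranes. IFITM3, the most abundant ISG of the 52, measured 366, 352 and 361 CPM in SCR and 216, 226 and 238 CPM in TFEB-KD, a change of -0.67 (SE 0.046, adjusted p = 1.19e-06). IFITM1 measured 68.8, 64.2 and 75.6 CPM in SCR and 41, 39.2 and 44 CPM in TFEB-KD, a change of -0.75 (SE 0.066, adjusted p = 6.80e-06). IFITM2, the next most abundant at 558 TPM in SCR, measured 183, 198 and 189.8 CPM in SCR and 153, 158 and 163 CPM in TFEB-KD. All 3 IFITM genes separated the groups fully, but for IFITM2 the log2 fold change of -0.27 (SE 0.046, adjusted p = 8.20e-04) stayed within the fold threshold. The 3 share much sequence, with 37.8% of the 31-base words of IFITM1, 29.8% of IFITM2 and 26.4% of IFITM3 found in other genes, mostly each other, so that how reads were divided among them is uncertain. PLSCR1, a phospholipid scramblase, was lower at -0.43 (adjusted p = 3.62e-04). LGALS3BP, a secreted glycoprotein that binds galectin-3, separated the groups with a log2 fold change of -0.29 (adjusted p = 8.50e-04), within the fold threshold. RTP4, a receptor chaperone, had 16, 10 and 15 counts in SCR and 8, 12 and 9 counts in TFEB-KD and a log2 fold change of -0.50 (adjusted p = 0.289), with overlapping groups.

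RNA and nucleotide enzymes and translation inhibitors were the most mixed group. Of 12 genes, 11 were tested, 3 were lower, 2 were higher, and the median log2 fold change was -0.15. Over all genes tested, 15.0% were lower and 9.99% higher. HELZ2, a helicase, measured 29.1, 32.2 and 31 CPM in SCR and 17.4, 17.3 and 18.9 CPM in TFEB-KD, a change of -0.78 (SE 0.059, adjusted p = 2.24e-06). EIF2AK2 encodes PKR, the kinase that halts translation on sensing double-stranded RNA, and measured 76.2, 81.3 and 80.4 CPM in SCR and 54.4, 49.8 and 50.5 CPM in TFEB-KD, a change of -0.62 (SE 0.049, adjusted p = 3.03e-06). SHFL, which blocks programmed ribosomal frameshifting, measured 39.6, 36.9 and 46 CPM in SCR and 30.8, 30.9 and 32.9 CPM in TFEB-KD, a change of -0.37 (SE 0.075, adjusted p = 0.00217). All 3 genes were lower in every TFEB-KD library than in any SCR library, though SHFL lay close to the threshold and was not called in 5 of 15 alternatives, among them leaving out SCR replicate 3 (-0.28) or TFEB-KD replicate 1 (-0.34) or 2 (-0.34). EIF2AK2 was called lower in counts, but its log2 fold change was -0.23 (adjusted p = 0.0723) once transcript length was taken into account. ISG20, a nuclease that degrades single-stranded RNA, went the other way and measured 0.684, 0.664 and 0.713 CPM in SCR and 1.19, 1.13 and 1.28 CPM in TFEB-KD, a change of 0.80 (SE 0.19, adjusted p = 0.00633). CMPK2, a mitochondrial nucleotide kinase, measured 0.499, 0.531 and 0.587 CPM in SCR and 0.801, 0.789 and 0.923 CPM in TFEB-KD, a change of 0.64 (SE 0.23, adjusted p = 0.0413). Both were rare, at no more than 68 counts in any library, and both separated the groups with TFEB-KD higher. CMPK2 was not called when any single library was left out, with log2 fold changes of 0.58 to 0.70, nor by DESeq2 (adjusted p = 0.157), without the gene filter (adjusted p = 0.177) or with the replicate block (adjusted p = 0.0782). The helicases DDX60 at -0.30 (adjusted p = 0.0311) and DDX60L at -0.27 (adjusted p = 0.00898) passed the adjusted p but not the fold threshold. ADAR, which edits adenosine to inosine in double-stranded RNA, had a log2 fold change of -0.15 (adjusted p = 0.0651). PNPT1, a mitochondrial exoribonuclease, had a log2 fold change of 0.013 (adjusted p = 0.841). The virus restriction factors SAMD9 and SAMD9L had log2 fold changes of 0.17 (adjusted p = 0.0696) and 0.13 (adjusted p = 0.217). RSAD2 (viperin), which makes a chain-terminating nucleotide, was removed by the count filter, with 9, 8.93 and 3 counts in SCR and 4, 5.53 and 20 counts in TFEB-KD. No fold is given for RSAD2, whose groups overlapped.

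All 5 TRIM genes, of a family that is mostly ubiquitin ligases, had a lower CPM in every TFEB-KD library than in any SCR library. The same held for 28.4% of all genes tested. Of the 5, 4 were called lower, against 15.0% of all genes tested, and the median log2 fold change was -0.50. TRIM5, which recognizes retroviral capsids, measured 34.3, 37.2 and 35.7 CPM in SCR and 24.2, 21.5 and 22.3 CPM in TFEB-KD, a change of -0.66 (SE 0.057, adjusted p = 6.27e-06). TRIM21, a cytosolic antibody receptor, measured 25.3, 22.7 and 25.9 CPM in SCR and 16.2, 15.6 and 15.4 CPM in TFEB-KD, a change of -0.65 (SE 0.062, adjusted p = 1.26e-05). TRIM22, a nuclear restriction factor and the most abundant of these 5, measured 85.4, 87 and 93.3 CPM in SCR and 63.3, 62 and 62.2 CPM in TFEB-KD, a change of -0.50 (SE 0.045, adjusted p = 7.92e-06). These 3 were at 63.4% to 70.6% of their SCR means. TRIM25, which activates the RNA sensor RIG-I, was barely past the threshold at -0.36 (adjusted p = 1.15e-04), and was not called in 8 of 15 alternatives, among them DESeq2 (-0.356), RLE factors (-0.356), no gene filter (-0.359), and leaving out SCR replicate 2 (-0.34) or TFEB-KD replicate 2 (-0.32) or 3 (-0.33). TRIM14, a mitochondrial adaptor, had a log2 fold change of -0.26 (adjusted p = 0.00526), within the fold threshold.

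The PARP genes encode ADP-ribosyltransferases, and DTX3L is the ubiquitin ligase that partners PARP9. All 5 were called lower in counts, with a median log2 fold change of -0.70. PARP9 measured 13.9, 14.2 and 15.3 CPM in SCR and 5.98, 6.56 and 6.59 CPM in TFEB-KD, a change of -1.18 (SE 0.074, adjusted p = 5.79e-07). PARP14 measured 18.4, 19.6 and 19.8 CPM in SCR and 12.8, 11.5 and 11.4 CPM in TFEB-KD, a change of -0.70 (SE 0.067, adjusted p = 1.31e-05). DTX3L measured 15.9, 16.2 and 14.5 CPM in SCR and 10.4, 8.81 and 8.21 CPM in TFEB-KD, a change of -0.77 (SE 0.091, adjusted p = 5.96e-05). The enzyme and its partner were thus both lower, PARP9 to 44.1% and DTX3L to 58.8% of the SCR mean, with no overlap between groups. PARP10 was lower at -0.60 (adjusted p = 1.48e-04) in counts, but it was not called in the 3 alternatives that work per transcript length, among them transcript length offsets (-0.29, adjusted p = 0.262) and log2(TPM + 1) (-0.20, adjusted p = 0.398). PARP12 was lower at -0.36 (adjusted p = 0.00492). PARP12 stood on the threshold and was not called in 11 of 15 alternatives, among them DESeq2 (-0.35), RLE factors (-0.35) and no gene filter (-0.358), and leaving out SCR replicate 3 (-0.33) or TFEB-KD replicate 1 (-0.33) or 3 (-0.27).

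Guanylate-binding proteins (GBPs) are large GTPases that attack vacuoles of intracellular microbes, and apolipoproteins L (APOLs) act on membranes. Of these 6 genes, 4 were lower, 1 was higher, and the median log2 fold change was -0.40. GBP1 measured 49.1, 47.1 and 57.6 CPM in SCR and 16.3, 18.1 and 18.2 CPM in TFEB-KD, a change of -1.55 (SE 0.080, adjusted p = 1.39e-07). GBP3 measured 8.98, 9.93 and 10.0 CPM in SCR and 3.57, 3.49 and 3.03 CPM in TFEB-KD, a change of -1.52 (SE 0.096, adjusted p = 5.81e-07). GBP2, the chromosomal neighbour of GBP1, was the exception and measured 1.05, 0.930 and 1.05 CPM in SCR and 1.47, 1.71 and 1.58 CPM in TFEB-KD, a change of 0.65 (SE 0.17, adjusted p = 0.0113). In CPM, GBP1 and GBP3 thus stood at 34.2% and 34.9% of their SCR means and GBP2 at 157%, with no overlap between groups for any of the 3. Per transcript length the mean level of GBP1 went from 24.3 TPM in SCR to 8.49 TPM in TFEB-KD, that of GBP3 from 5.86 to 3.27 TPM and that of GBP2 from 0.384 to 0.797 TPM. The log2 ratio of mean TPM was thus smaller for GBP3 (-0.84) than for GBP1 (-1.52). For each of the 3, between 10.6% and 14.9% of the 31-base words occur in other genes. APOL2 measured 57.2, 57.2 and 56.9 CPM in SCR and 42.1, 42 and 43.2 CPM in TFEB-KD, a change of -0.43 (SE 0.041, adjusted p = 1.17e-05). APOL1, the trypanosome-lysing serum protein, was near the threshold at -0.37 (adjusted p = 0.0194), and was not called in 8 of 15 alternatives, among them DESeq2 (-0.36, adjusted p = 0.0537) and leaving out SCR replicate 2 (-0.38, adjusted p = 0.0504) or 3 (-0.31) or TFEB-KD replicate 2 (-0.29). APOL6 had a log2 fold change of -0.10 (adjusted p = 0.308).

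Nuclear body and adaptor proteins were the group nearest to no change, with 2 of 5 lower, none higher and a median log2 fold change of -0.10. Over all genes tested, 15.0% were lower and 9.99% higher. SP110, a nuclear body protein, measured 16.7, 16.9 and 16 CPM in SCR and 10.1, 10.9 and 10.9 CPM in TFEB-KD, a change of -0.64 (SE 0.063, adjusted p = 1.56e-05). IFI35, an adaptor that binds NMI, measured 19.4, 17.7 and 21.5 CPM in SCR and 11.7, 12.1 and 12.5 CPM in TFEB-KD, a change of -0.69 (SE 0.076, adjusted p = 3.49e-05). These were at 64.3% and 61.9% of their SCR means, with no overlap between groups. Their partners within the group were not called, with SP100 at -0.10 (adjusted p = 0.0759) and NMI at -0.029 (adjusted p = 0.806). IFI16, a DNA sensor of the nucleus, had a log2 fold change of 0.0024 (adjusted p = 0.974), and its values of 58.2 to 58.6 CPM in SCR lay inside the 55.4 to 61.6 CPM of TFEB-KD.

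The last group holds small or poorly characterized ISGs, and all 6 were called lower, with a median log2 fold change of -1.66. IFI6, an endoplasmic reticulum and mitochondrial protein that limits flavivirus replication, measured 109, 86 and 116 CPM in SCR and 18.5, 17.7 and 19 CPM in TFEB-KD, a change of -2.49 (SE 0.10, adjusted p = 2.52e-08). IFI44L measured 3.20, 2.63 and 3.0 CPM in SCR and 0.778, 0.608 and 0.640 CPM in TFEB-KD, a change of -2.12 (SE 0.17, adjusted p = 3.41e-06). EPSTI1 measured 6.01, 6.16 and 6.02 CPM in SCR and 2.93, 2.41 and 2.62 CPM in TFEB-KD, a change of -1.19 (SE 0.11, adjusted p = 6.80e-06) in counts and of -0.66 (adjusted p = 0.00425) with transcript length offsets. No TFEB-KD library reached an SCR library for any of the 3, and the mean level of IFI6 in TFEB-KD was 39.2 TPM. IFI27, a mitochondrial protein, measured 2.0, 1.78 and 2.01 CPM in SCR and 0.435, 0.496 and 0.301 CPM in TFEB-KD, a change of -2.24 (SE 0.22, adjusted p = 1.64e-05). Also lower were IFI44 at -0.90 (adjusted p = 4.15e-05) and XAF1, an antagonist of the apoptosis inhibitor XIAP, at -0.83 (adjusted p = 1.78e-05). Overlaps with other genes make some of these counts uncertain. IFI6 shares 23.1% of its exon bases with LINC02574 on the same strand, IFITM1 shares 21.1% with a gene that has no symbol, and GBP2 shares 8.60% with GBP7, while no other ISG shares more than 7.14%. Without strand, reads of a gene and its antisense partner cannot be told apart, which touches 38.3% of the exon bases of XAF1 (opposite PRAL), 27.1% of SHFL, 19.4% of SP110, 16.3% of IFITM3, 10.6% of IFITM1, 8.64% of PARP10, 8.03% of IFI16 and 8.0% of CMPK2 (opposite RSAD2), and at most 7.70% of any other ISG.

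**Figure D3:**
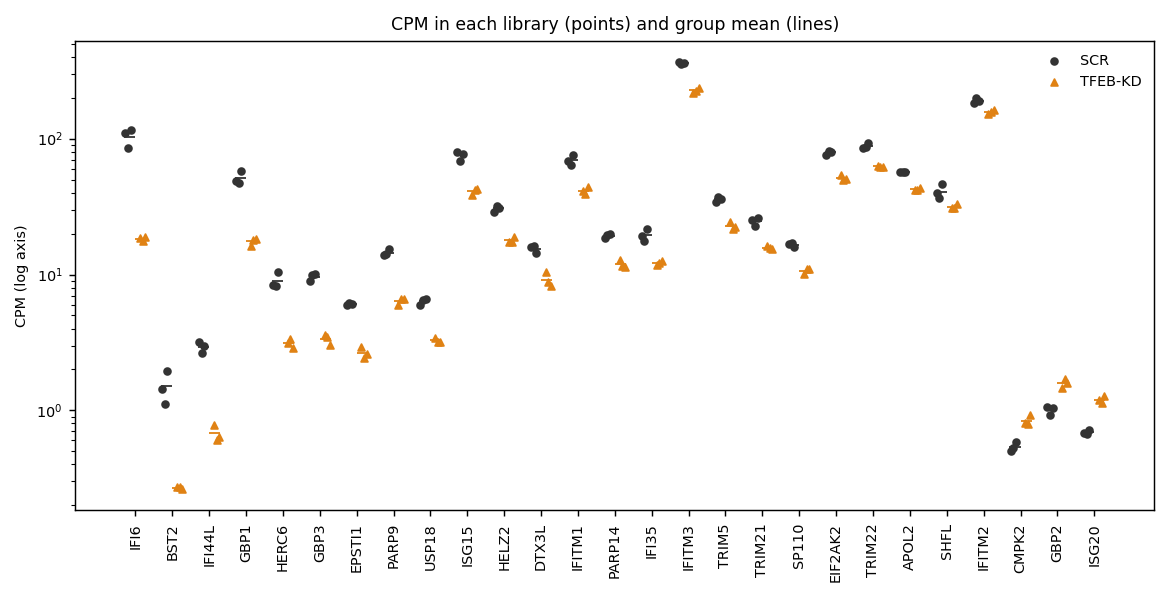
CPM of 27 ISGs is plotted on a log axis for each SCR library (dark circles) and TFEB-KD library (orange triangles), with lines for group means, in order of log2 fold change. The groups do not overlap for any gene shown, and only CMPK2, GBP2 and ISG20, at the right, have TFEB-KD above SCR. Of all genes tested, 28.4% separated with TFEB-KD lower and 27.0% with TFEB-KD higher.

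Neighbouring ISGs did not always move together. Of the 52, 25 lie in 11 clusters with gaps of at most 200000 bases. On chromosome 1, GBP3 and GBP1 were lower while GBP2 was higher, and IFI44L (-2.12) and IFI44 (-0.90) were both lower. On chromosome 4, HERC6 was lower at -1.53 while HERC5, its neighbour, was not called. On chromosome 2, SP110 was lower and SP100 was not called, and CMPK2, higher, overlaps RSAD2, which was not tested. On chromosome 3 PARP9, DTX3L and PARP14, on chromosome 11 TRIM5 and TRIM22, and on chromosome 22 APOL2 and APOL1 were all lower. In another cluster of chromosome 11, IFITM1 (-0.75) and IFITM3 (-0.67) were lower while IFITM2 (-0.27) was not called. The pairs SAMD9 and SAMD9L on chromosome 7 and DDX60 and DDX60L on chromosome 4 held no gene that was called. PARP9 and DTX3L overlap at their starts on opposite strands and were lower by 1.18 and 0.77 on the log2 scale.

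Counts and TPM gave different sizes of change for some ISGs, because the average transcript length implied by their ratio differed between groups. It differed by at most 10% for 39 of the 51 ISGs tested, against 84.9% of all genes tested. In TFEB-KD the implied length of GBP3 was 63.9% of that in SCR, of EPSTI1 69.9%, of ISG20 71.9%, of EIF2AK2 77.3%, of GBP2 79.2%, of PARP10 80.1% and of CMPK2 81.7%. The libraries of the 2 groups did not overlap in implied length for GBP3, EPSTI1 and EIF2AK2, but they did for ISG20, GBP2, PARP10 and CMPK2. In TFEB-KD replicate 3, both ISG20 and GBP2 were above the SCR mean length, so that their group values rest on the other TFEB-KD libraries. Accordingly the log2 ratio of mean TPM was -0.84 for GBP3 in place of -1.52 in counts and -0.63 for EPSTI1 in place of -1.19. It was -0.20 for EIF2AK2 in place of -0.62 and -0.26 for PARP10 in place of -0.60. For ISG20 it was 1.35 in place of 0.80, for GBP2 1.05 in place of 0.65, and for CMPK2 0.98 in place of 0.64. The implied lengths of HERC6 and IFI27 in TFEB-KD were 123% and 142% of SCR with overlapping groups, at 70.8% to 125.6% of the SCR mean length in SCR and 106.7% to 147.7% in TFEB-KD for HERC6, and at 85.7% to 109.7% and 99.1% to 179.2% for IFI27. Their log2 ratios of mean TPM were -1.80 and -2.63. The implied length of BST2 was 100.5% of SCR, and its log2 ratio of mean TPM was -2.44 beside -2.47 in counts.

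The ISRE letters GAAANNGAAA, searched on both strands, were found in the promoter windows of 30 of the 43 ISGs for which RefSeq sequence was at hand (69.8%), against 4.38% of all 27305 genes with a window. A window runs from 250 bases before to 50 after a start site. In 26 of the 30 genes a match lay wholly before the start, 12 had at least 2 matches in a window, and the median match, counted in each window that holds it, began 71 bases before the start. Of the 29 tested ISGs with the letters, 20 were lower and ISG20 was higher, and their median log2 fold change was -0.66. Of the 13 without, 6 were lower (HERC6, XAF1, HELZ2, IFI35, SP110 and TRIM25) and CMPK2 was higher, with a median of -0.15. Lower genes were thus found with and without the letters, and HERC5 with 3 matches and SAMD9 with 1 were not called. Among 439 other tested genes with the letters, 20.3% were lower and 9.79% higher, beside 15.1% and 9.71% of 11250 without. Other genes, here and for the motifs below, are tested genes with a window outside the ISGs described here. ISGs of other families, such as IFIT, OAS and MX, were not taken out, and their part in the 20.3% was not tested.

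Among the ISGs the other motifs were found less often than the ISRE letters, whereas over all genes GAS and the E-box were the more common. The GAS letters TTCNNNGAA were in the windows of 12 of 43 ISGs (27.9%, against 9.38% of all genes), with 13 matches at distinct sites, of which 4 overlapped an ISRE match. Of these 12, 9 were lower and none was higher, with a median log2 fold change of -0.69, and of the 30 tested without, 17 were lower and 2 higher, with a median of -0.44. Among other tested genes 15.7% of 994 with the GAS letters and 15.2% of 10695 without were lower. The E-box CACGTG, part of the element to which TFEB binds, was in 6 of 43 (13.95%, against 8.78%), namely ADAR, EIF2AK2, HERC5, ISG20, SP100 and TRIM25. Of these 6, 2 were lower (EIF2AK2 and TRIM25), ISG20 was higher, and the median log2 fold change was -0.19. The median was -0.66 over the 36 without, of which 24 were lower and 1 higher. The call of EIF2AK2 was lost in 3 of 15 alternatives and that of TRIM25 in 8 of 15. Among other tested genes 13.3% of 1421 with the E-box and 15.55% of 10268 without were lower. The longer form TCACGTGA was in 0 of 43, against 1.18% of all genes.

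**Figure D4:**
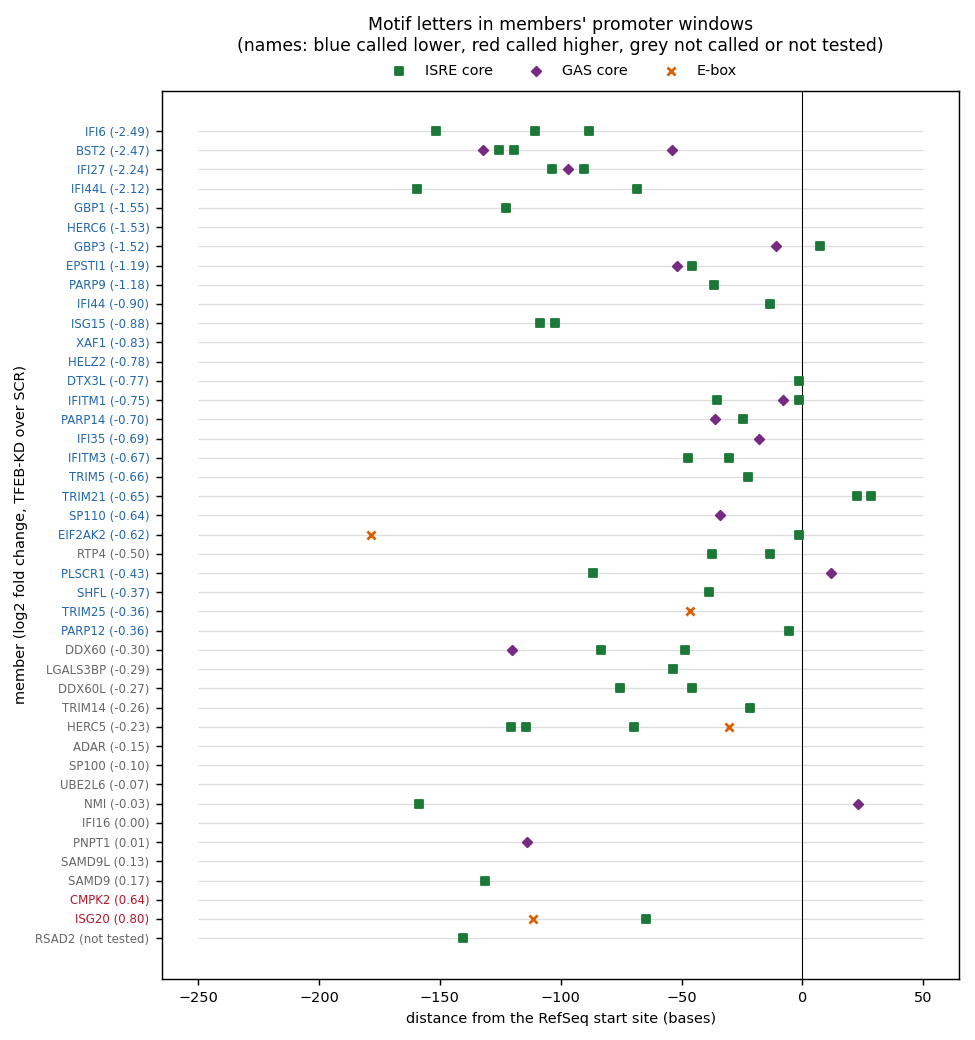
Matches to the ISRE, GAS and E-box letters are plotted by distance in bases from the RefSeq start site (vertical line at 0), for 42 tested ISGs in order of log2 fold change with RSAD2, not tested, at the bottom, and, for genes with several windows, in the window with most ISRE matches. ISRE matches (squares) stand before the start of most genes at the top, where values fell, and also before HERC5, SAMD9 and ISG20 lower down, and 2 of the 6 genes with an E-box hold it in a window not drawn.

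The rest of the interferon pathway was measured in the same libraries, in lists drawn up with earlier results of these data known. Of the IFIT, OAS and MX effectors, 10 of 11 genes were tested, 8 were lower, none was higher, and the median log2 fold change was -2.75, beside -0.50 for the 51 ISGs. IFIT1, which binds uncapped viral RNA, measured 42.4, 44.5 and 45.7 CPM in SCR and 3.07, 2.73 and 3.58 CPM in TFEB-KD, a change of -3.81 (SE 0.083, adjusted p = 1.76e-09). The GTPase MX1 changed by -2.50 (adjusted p = 3.51e-09) and OAS3, which makes the activator of RNase L, by -3.00 (adjusted p = 4.98e-08). Of the nucleic acid sensors, 4 of 10 tested were lower, none was higher, and the median was -0.22. For both lists, the share over all genes tested was 15.0% lower and 9.99% higher. The RNA sensors RIGI (-1.21, adjusted p = 6.09e-06) and IFIH1 (-1.11, adjusted p = 1.91e-04) and the kinase IKBKE (-0.44, adjusted p = 1.40e-04) were lower, as was DHX58 at -0.54 (adjusted p = 0.00135), named after its value was seen.

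Among the receptors, kinases and transcription factors of interferon signalling, STAT2 changed by -0.50 (adjusted p = 1.95e-04). IRF9, which binds DNA with STAT2, had a log2 fold change of -0.30 (adjusted p = 0.00170) and was not called. The feedback inhibitor SOCS3 (-0.91, adjusted p = 2.24e-06) and the interferon gamma receptor chain IFNGR2 (-0.52, adjusted p = 3.79e-06) were lower. IRF7, itself an ISG that amplifies interferon production, changed by -0.64 (adjusted p = 0.00275), whereas IRF3 at -0.078 (adjusted p = 0.172) and IRF1 at 0.26 (adjusted p = 0.0256) were not called. JAK2, a receptor kinase named after its value was seen, was higher at 0.38 (adjusted p = 0.0114).

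The 13 interferon genes listed, which do not include every interferon alpha gene, were nearly silent. Of 13 ligand genes 1 was tested, IFNE, an epithelial type I interferon, with 53, 27 and 36 counts in SCR and 80, 100 and 119 counts in TFEB-KD, which was higher at 1.35 (SE 0.19, adjusted p = 1.96e-04). IFNA1 had 13, 6.62 and 4.10 counts in SCR and 6.66, 3.86 and 15.5 counts in TFEB-KD, with overlapping groups. IFNA5, IFNA8, IFNA13, IFNW1 and IFNL3 had at most 2 counts in any library. IFNB1, the interferon that fibroblasts are best known to make, and IFNA2, IFNK, IFNG, IFNL1 and IFNL2 had 0 counts in every library. Counts of 0 allow up to 3 counts, or 0.0554 to 0.0796 CPM depending on the library, counting error only.

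Of the 17 class I presentation genes, all tested, 7 were lower, none was higher, and the median log2 fold change was -0.30. Over all genes tested, 15.0% were lower and 9.99% higher. PSMB9, an immunoproteasome subunit, changed by -1.39 (adjusted p = 2.21e-06), HLA-B by -0.97 (adjusted p = 8.02e-07) and HLA-E by -0.50 (adjusted p = 8.64e-06). A further 8 passed the adjusted p but not the fold threshold.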

How the data were processed

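RNA-seq was measured in 3 SCR and 3 TFEB-KD libraries made with a SMARTer mRNA-Seq kit. Per the labels and the study's methods, the authors ran Trim Galore, STAR 2.7.10a and Salmon 1.10.1 on hg38 with GENCODE. The deposited estimated counts are raw per gene, and the deposited TPM values are per transcript length, with 1 total for all libraries. A further deposited table holds the authors' own fold changes and p-values and was not used. Strand use in counting and the GENCODE release are not given in the sources used here. GENCODE 44 holds 62700 of the 62754 identifiers and gave coordinates, exon overlaps and shared 31-base words.

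Estimated counts were rounded, filtered by filterByExpr (16931 genes left), scaled by TMM (factors 0.955 to 0.982 in SCR, 1.03 in TFEB-KD) and compared in R 4.3.3 by edgeR 4.0.16 (glmQLFit and glmQLFTest, no replicate block) with Benjamini-Hochberg adjustment. The code was tested on simulated data. Alternatives were DESeq2 1.42.0, no filter or one of at least 10 counts in each library, RLE factors or library sizes alone, a replicate block, glmTreat, limma 3.58.1 on log2(TPM + 1) and log2(TPM + 0.1), transcript length offsets, a fold threshold of 1, and each library left out. The study's methods describe its replicates as independent and biological, while the labels give only a number per library. No 2 libraries agreed within sampling noise. Floors for counts of 0 cover counting error only, while standard errors and SDs include the spread between libraries.

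The 52 genes and all gene lists were chosen with earlier results of these data known. Values in every library are given for TFEB, the 3 called genes of smallest adjusted p in each of 8 functional groups, the 3 most abundant genes and every gene called higher. Log2 fold changes are given for those not called, and in other lists for the 3 genes of smallest adjusted p, each ligand with a count, and STAT2, IRF1, IRF3, IRF7 and IRF9. Some results under this rule, and the count over the list of signalling genes, are not reported here. Others named were chosen after their values were seen. RefSeq windows (35116 for 27305 genes, GRCh38.p14) matched 43 of the 52 by symbol.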

Additional observations from a re-analysis of the deposited data

How the results depend on the processing

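The lower level of the ISGs kept its direction under each alternative run. Of the 32 called lower, 24 were called in all 15 alternatives that keep the fold threshold and the test against no change, none changed sign, and 8 (APOL1, APOL2, EIF2AK2, PARP10, PARP12, PLSCR1, SHFL and TRIM25) lost the call in at least 1, with the cause not tested. EIF2AK2 and PARP10 lost it in the 3 that work per transcript length, where adjusted p over all alternatives ran to 0.179 and 0.398. PLSCR1 and APOL2 lost it with library sizes alone, PARP12 in 11 of the 15, APOL1 and TRIM25 in 8 each and SHFL in 5. GBP2 and ISG20 were called in all 15 of these, and CMPK2 was lost in 10, with adjusted p from 0.0197 to 0.177. The median log2 fold change of the ISGs was -0.41 with library sizes alone, -0.53 with at least 10 counts in each library, -0.38 on log2(TPM + 1) and -0.39 on log2(TPM + 0.1), and -0.56 to -0.46 with 1 library left out. Leaving out 1 library also gave 29 to 32 ISGs lower and 2 higher, 1582 to 1690 genes higher, 2294 to 2493 genes lower, 44 to 45 ISGs without overlap, and a summed TPM of 67.1% to 68.9% of SCR (63.2% without the 3 most abundant ISGs). With TPM in place of CPM, 36 ISGs did not overlap. For TPM and for the libraries left out, the share of all genes without overlap is not given here. Leaving out a library also makes separation easier for any gene, so these overlap counts are not read as a result about the ISGs. Genes called lower were 1668 on log2(TPM + 1). Under glmTreat, which tests against the fold threshold itself, 1573 genes were lower and 788 higher, with 26 ISGs lower and 0 higher. The main edgeR test against no change, with the fold threshold applied afterwards, called 32 ISGs lower and 3 higher. Past a log2 fold change of 1, 864 genes were lower and 422 higher, with 9 ISGs lower and 0 higher. Of the genes not called, 4 changed sign near 0. UBE2L6 was at 0.015 and NMI at 0.060 with library sizes alone, and with 1 library left out PNPT1 ran from -0.0040 to 0.050, IFI16 from -0.017 to 0.062 and NMI from -0.083 to 0.042.

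Deviations from the group means correlated at -0.071, 0.076 and 0.097 for same-numbered libraries and at -0.17 to 0.11 for the others. With 3 libraries per group, this check cannot tell whether libraries of the same number were paired, and the labels do not say. With the replicate block, 1595 genes were higher and 2450 lower, 32 ISGs were lower and 2 higher, and their median was -0.52. Depth limits the precision for HERC5 and RTP4, with standard errors of 0.28 and 0.36 at no more than 28 counts in any library, and RSAD2 and 12 of the 13 ligands were too rare to test.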
